A study of Mus musculus with 12 samples.

Results

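Genes that interferon-gamma switches on were followed in the colon of mice that lacked interleukin-10, STING or both. The set comprised the immunity-related GTPases Iigp1, Igtp, Irgm1 and Irgm2, the guanylate-binding proteins Gbp2, Gbp3, Gbp5, Gbp6 and Gbp7, and Ido1, which is an enzyme and not a GTPase. It was chosen by name, and each gene was read from its brightest probe set among those annotated with exactly 1 symbol. This gave values for 9 of the 10 genes, out of 22180 genes in all. The only probe set for Gbp2 is annotated to Gbp2b as well, so Gbp2 has no value here.

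Colon RNA was measured on 12 Affymetrix whole-transcript arrays, with 3 arrays for each of 4 genotypes. The double knockout (DKO) was IL10-/- STING-/-, the interleukin-10 knockout (IL10KO) was IL10-/- STING+/+, the STING knockout (SKO) was IL10+/+ STING-/-, and wild type (WT) was IL10+/+ STING+/+. All samples are colon, and the labels name no treatment. Strain, age, which exons were deleted, and whether each array came from a separate animal are not stated in the labels, so p-values measure the spread between these samples, which may be technical. Values are the authors' log2 signals, in which a step of 1 is a doubling. Signals of different genes come from different probes and are not compared with each other.

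Interferon-gamma is a cytokine made by T cells and natural killer cells. It binds the receptor chains Ifngr1 and Ifngr2, acts through the kinases Jak1 and Jak2, and raises Irf1, a transcription factor that binds interferon-stimulated response elements. The GTPases it induces defend cells against microbes that live inside vacuoles. Immunity-related GTPases of the effector kind, such as Iigp1, load onto the vacuole membrane and break it, while Irgm1, Irgm2 and Igtp (also called Irgm3) hold the effectors inactive on the cell's own membranes. Guanylate-binding proteins gather on vacuoles and on bacterial surfaces and promote caspase-11 and inflammasome responses. Ido1 starts the breakdown of tryptophan to kynurenine. Interleukin-10 restrains inflammation, mice without it are a widely used colitis model, and STING relays the sensing of cytosolic DNA into type I interferon.

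Several libraries stood apart. Sting1 signal was 4.13 to 4.34 on the DKO arrays, 6.87 to 8.09 on the IL10KO arrays and 4.28 to 4.40 on the SKO arrays, against 7.51, 6.40 and 4.56 on WT replicates 1, 2 and 3. The library labelled WT replicate 3 therefore lay near the STING knockouts and against its label. Pancreatic acinar markers (14 genes) averaged 8.67 on WT replicate 1 and 11.30 on WT replicate 2, against 4.76 to 5.50 on the other 10 arrays. Stratified squamous and sebaceous markers (18 genes) averaged 4.94 on DKO replicate 3 and 4.99 to 6.89 on the IL10KO arrays, against 4.09 to 4.31 elsewhere. Colon epithelial markers (15 genes) were bright on all 12 arrays, with means of 10.07 to 10.63. Il10 signal was 4.33 to 4.60 in DKO, 4.59 to 5.47 in IL10KO, 3.65 to 3.82 in SKO and 3.59 to 3.80 in WT. Whether its probe set covers the deleted part is not given, so it checks no label.

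The immunity-related GTPases were bright in both genotypes without interleukin-10 and dim in SKO, while WT held 1 bright array and 2 dim ones. Iigp1, an effector GTPase, had signals of 6.92, 8.06 and 7.52 in DKO, 9.17, 8.76 and 8.37 in IL10KO and 5.50, 4.43 and 5.49 in SKO, against 9.16, 6.36 and 5.34 in WT. Its range over the 12 arrays, 4.74 log2 units, was the widest of the 9 genes. WT replicate 1 was at the level of the brightest IL10KO array, and the library labelled WT replicate 3 was within the SKO range. Means were 7.50 ± 0.57 in DKO, 8.77 ± 0.40 in IL10KO, 5.14 ± 0.62 in SKO and 6.95 ± 1.98 in WT (SD, n = 3 each).

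Igtp, a regulatory GTPase, had signals of 6.73, 7.95 and 7.37 in DKO, 8.04, 7.37 and 8.05 in IL10KO and 5.73, 4.69 and 6.46 in SKO, against 8.92, 5.84 and 5.66 in WT. Irgm2, which lies next to Igtp in the gene order of the mouse table used for names, had 7.49, 8.29 and 7.79 in DKO, 8.09, 7.78 and 7.97 in IL10KO and 6.67, 6.02 and 7.27 in SKO, against 8.70, 6.49 and 6.60 in WT. For both genes WT replicate 1 was the brightest of all 12 arrays, and every DKO array lay above every SKO array. Irgm1, the regulatory GTPase whose loss is known to leave mice open to intracellular bacteria, had 6.62, 7.24 and 6.66 in DKO, 6.94, 7.25 and 7.33 in IL10KO and 5.86, 5.81 and 6.29 in SKO, against 7.70, 6.08 and 6.22 in WT. The order of its group means was that of Igtp, in a narrower range of 1.89 log2 units over the 12 arrays.

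The guanylate-binding proteins had ranges of 0.95 log2 units (Gbp6) to 1.94 (Gbp7) over the 12 arrays and did not all follow that order. Gbp3 had signals of 6.24, 6.51 and 6.23 in DKO, 6.87, 6.88 and 6.83 in IL10KO and 5.55, 5.58 and 6.22 in SKO, against 7.10, 5.91 and 5.61 in WT. The 3 IL10KO arrays lay within an SD of 0.02 of each other and above every DKO array. Gbp5, which is known to promote NLRP3 inflammasome assembly, had 4.72, 4.61 and 4.57 in DKO, 4.85, 5.10 and 5.48 in IL10KO and 4.56, 4.65 and 4.28 in SKO, against 5.47, 4.92 and 4.14 in WT. It lay higher in IL10KO than in DKO with no overlap, and the DKO and SKO arrays overlapped.

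Gbp7, known to help bring the phagocyte oxidase to vacuoles, had signals of 7.99, 8.08 and 7.63 in DKO, 7.53, 8.16 and 7.53 in IL10KO and 7.30, 7.22 and 7.51 in SKO, against 9.16, 7.81 and 7.33 in WT. It was the only one of the 9 genes with its highest mean in WT, where the mean was 8.10 ± 0.95 (SD, n = 3) and rested on WT replicate 1. Gbp6 stayed between 2.37 and 3.32 and lay below the lower quartile of all genes on each of the 12 arrays, so its differences describe a dim probe set. Its signals were 3.32, 2.56 and 2.68 in DKO, 3.08, 2.45 and 2.59 in IL10KO and 2.72, 2.85 and 2.91 in SKO, against 2.53, 2.37 and 2.64 in WT. Ido1 had signals of 6.08, 6.61 and 6.83 in DKO, 8.52, 7.13 and 7.13 in IL10KO and 5.26, 6.37 and 5.32 in SKO, against 8.14, 5.44 and 5.34 in WT. Its IL10KO arrays lay above its DKO arrays, and SKO replicate 2 stood above the other 2 SKO arrays.

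The mean signals ran IL10KO, DKO, WT, SKO from high to low in 6 genes, namely Iigp1, Igtp, Irgm1, Irgm2, Gbp3 and Ido1. In these 6 the neighbours DKO and WT overlapped, as did WT and SKO. IL10KO and DKO overlapped in Igtp, Irgm1 and Irgm2 and did not in Iigp1, Gbp3 and Ido1. Gbp5 ran IL10KO, WT, DKO, SKO, Gbp7 ran WT, DKO, IL10KO, SKO, and Gbp6 ran DKO, SKO, IL10KO, WT. These were bulk samples, in which fewer cells of a type and less RNA per cell cannot be told apart.

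**Figure D1:**
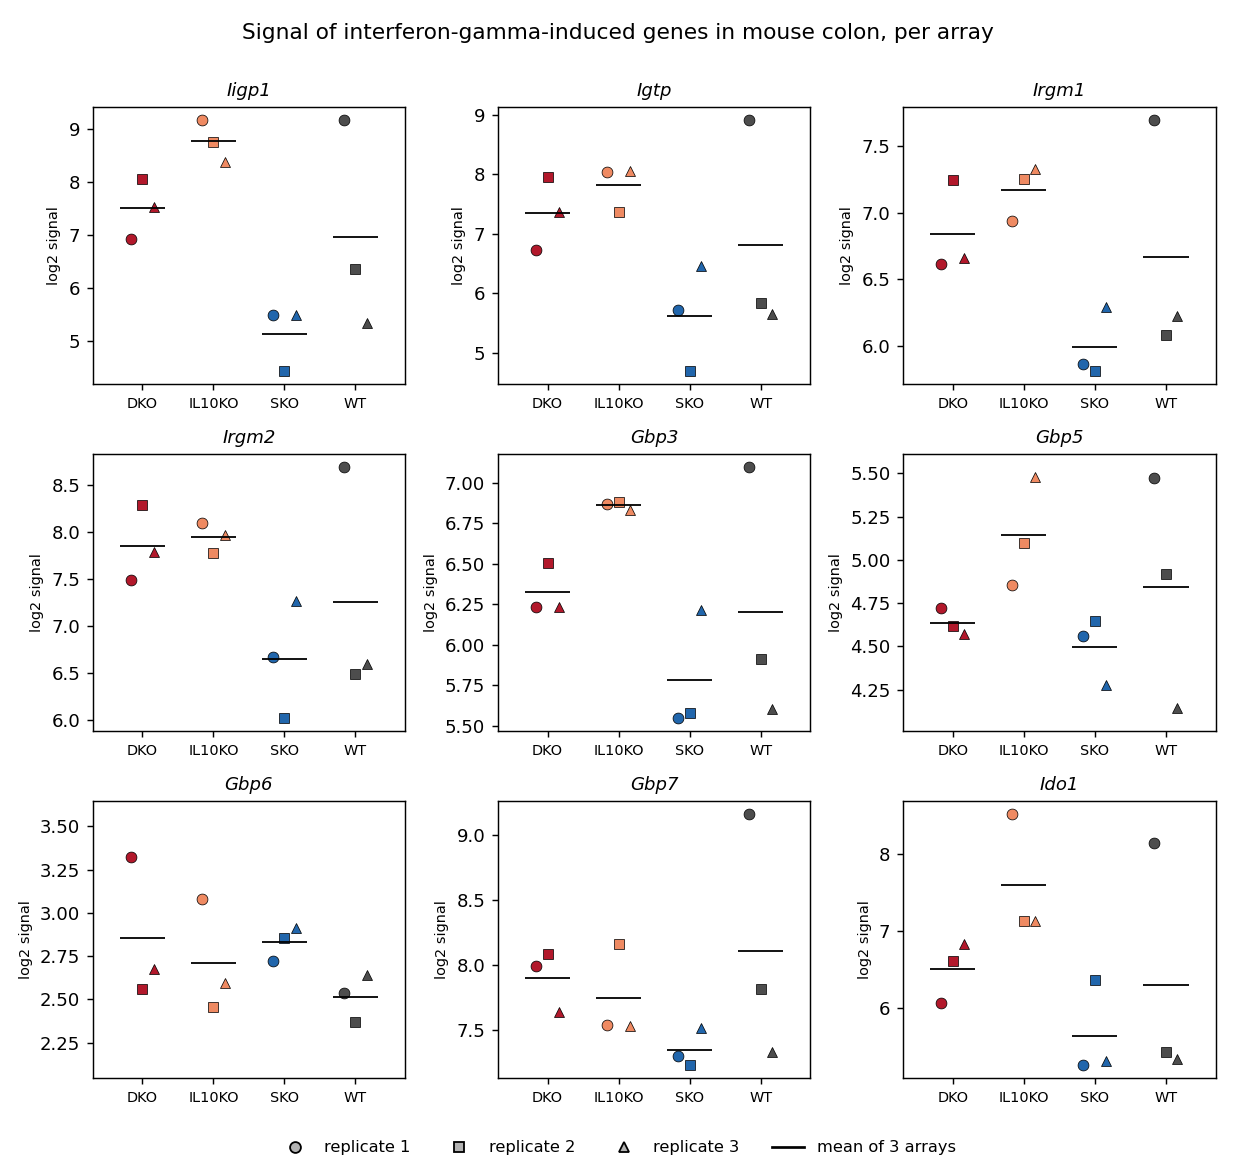
Log2 signal (vertical axis, its scale set per gene) of the 9 measured genes on each array, with DKO, IL10KO, SKO and WT from left to right, replicates 1, 2 and 3 as circle, square and triangle, and the mean of 3 arrays as a line. In 8 of the 9 panels WT replicate 1 is the highest WT array, and in Igtp, Irgm1, Irgm2, Gbp3 and Gbp7 it is the highest of all 12.

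The loss of interleukin-10 was compared first with STING present. Between IL10KO and WT, none of the 9 genes passed the threshold, an adjusted p under 0.05 in limma's moderated test with Benjamini-Hochberg adjustment over all 22180 genes, where 8.14% of all genes did. At an unadjusted p under 0.05, Iigp1 and Gbp3 were higher in IL10KO, against 11.6% of all genes, and 8 of the 9 differences were above 0, against 53.6% of all genes. Iigp1 was higher by 1.82 ± 0.69 log2 units (SE), with an interval of 0.33 to 3.31 and an adjusted p of 0.118 in limma. Ido1 was higher by 1.29 ± 0.61, with an interval of -0.03 to 2.60 and an adjusted p of 0.203. Igtp, Irgm2, Gbp3 and Irgm1 differed by 1.02, 0.69, 0.66 and 0.50, and Gbp7 by -0.36. All intervals are unadjusted 95% intervals. In none of the 9 genes did the IL10KO arrays all lie above the WT arrays, which 14% of all genes showed.

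WT replicate 1 was the brightest WT array in 8 of the 9 genes, against 32% of all genes. It was above both other WT arrays by over 1 log2 unit in 7 of the 9 genes, against 0.591% of all genes, the 2 exceptions being Gbp5 and Gbp6. It exceeded the mean of the other 2 by 3.31 for Iigp1, 3.17 for Igtp, 2.75 for Ido1, 2.15 for Irgm2, 1.59 for Gbp7, 1.54 for Irgm1, 1.34 for Gbp3 and 0.94 for Gbp5, on the log2 scale. With this array left out, 6 of the 9 genes rose in IL10KO by limma's adjusted p, against 1.94% of all genes. Iigp1 was then higher by 2.92 ± 0.40 (SE; limma adjusted p = 0.00158), and Ido1, Igtp, Irgm2, Gbp3 and Irgm1 by 2.20, 2.08, 1.40, 1.10 and 1.02, with limma adjusted p between 0.0101 and 0.0226. Gbp5 at 0.61, Gbp6 at 0.20 and Gbp7 at 0.17 did not pass. Of the 2 WT arrays then left, 1 is the library labelled WT replicate 3. Without that library and with WT replicate 1 kept, none of the 9 genes passed in limma, 1.61% of all genes were called higher, and Iigp1 differed by 1.01 (limma adjusted p = 0.372). Without WT replicate 2, none passed either, against 1.39% of all genes called higher, and Iigp1 differed by 1.52 (limma adjusted p = 0.282).

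**Figure D2:**
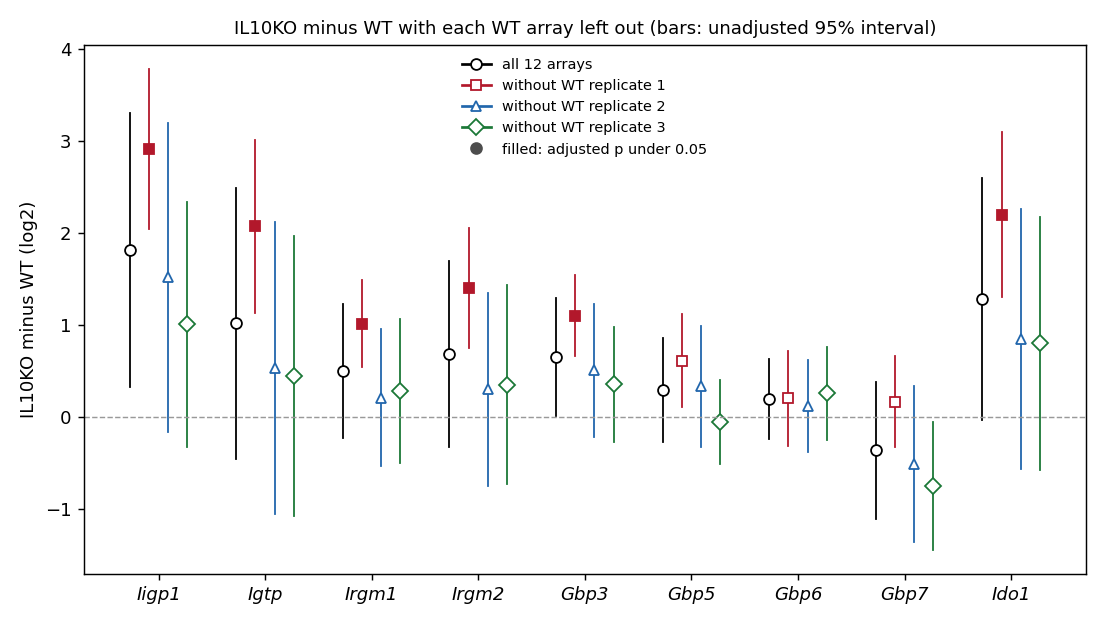
Difference in log2 signal between IL10KO and WT (vertical axis) for each of the 9 genes, from all 12 arrays and with WT replicate 1, 2 or 3 left out, with unadjusted 95% intervals as bars and filled symbols where limma's adjusted p is under 0.05. The 6 filled symbols are Iigp1, Igtp, Irgm1, Irgm2, Gbp3 and Ido1 without WT replicate 1.

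WT replicate 1 was high in other lists too. It was over 1 log2 unit above both other WT arrays in 7 of 13 other family genes, 9 of 22 other interferon-gamma targets, 7 of 20 type I interferon-stimulated genes, 6 of 17 T and natural killer cell markers and 5 of 9 B and plasma cell markers. No neutrophil (10) or smooth muscle (10) marker showed this. Acinar markers averaged higher on WT replicate 2 than on replicate 1, as given above. T and natural killer cell markers averaged 5.01 to 5.11 in DKO, 5.34 to 5.71 in IL10KO and 4.62 to 4.82 in SKO, against 5.54, 4.75 and 4.52 on WT replicates 1, 2 and 3. These markers thus ordered the arrays much as the GTPases did, and their part in the result was not tested.

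**Figure D3:**
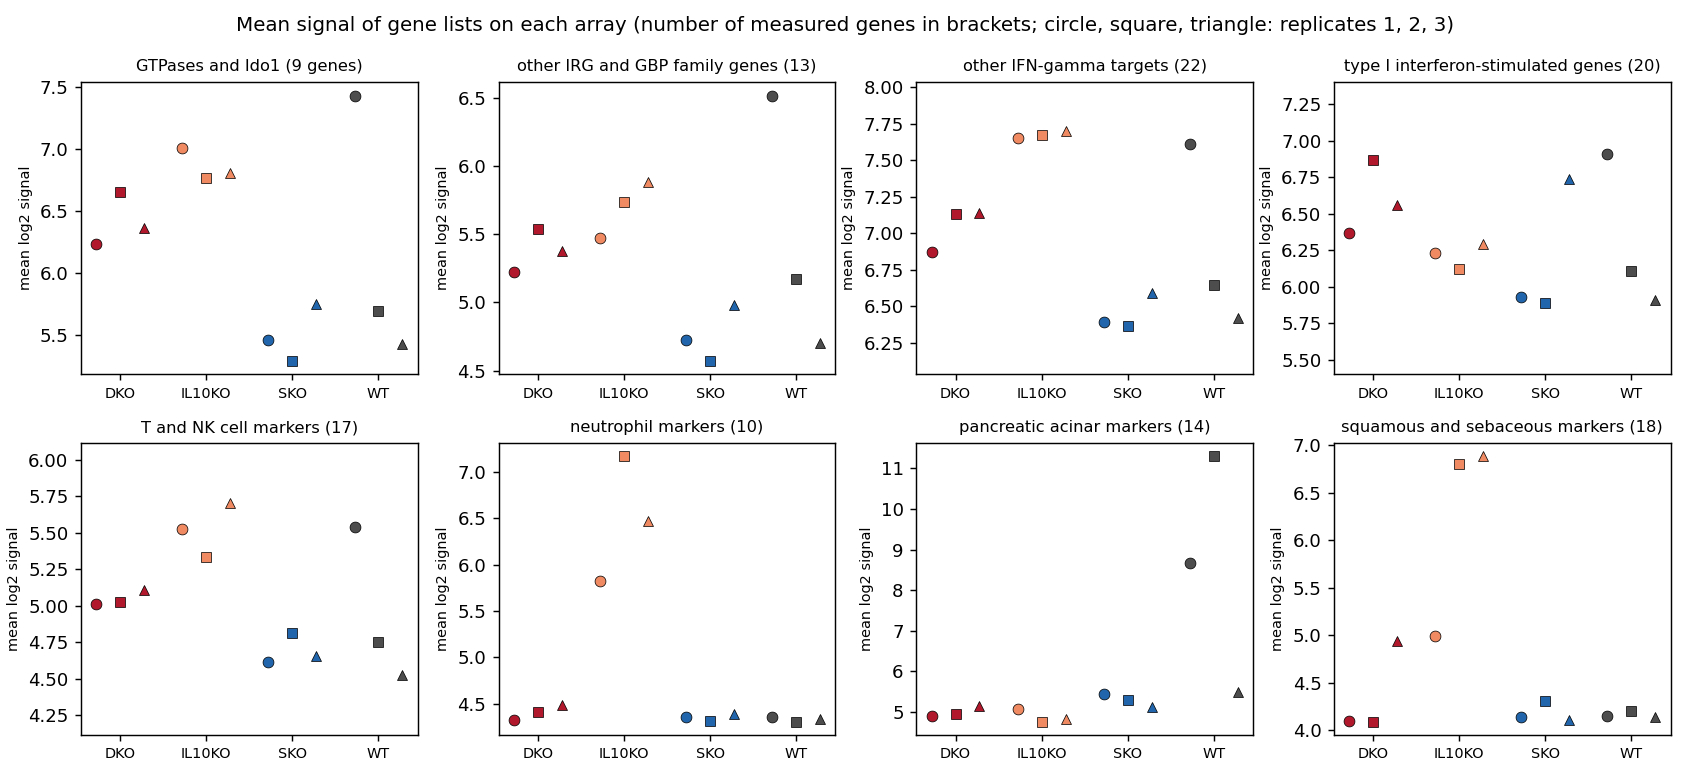
Mean log2 signal over the genes of 8 lists (vertical axis, its scale set per list) on each array, with DKO, IL10KO, SKO and WT from left to right and replicates 1, 2 and 3 as circle, square and triangle. WT replicate 1 stands near or above the IL10KO arrays for the GTPases and Ido1, the other family genes, other interferon-gamma targets and T and natural killer cell markers. It stands above them for type I interferon-stimulated genes (6.91 against 6.12 to 6.30) and acinar markers (8.67 against 4.76 to 5.07). For neutrophil markers it stands with the other WT arrays, between 4.31 and 4.36.

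With STING absent, the loss of interleukin-10 was compared in DKO against SKO. None of the 9 genes passed the threshold in limma, against 0.0451% of all genes (10 genes). The DKO arrays nevertheless lay above the SKO arrays without overlap in 6 of the 9 genes, against 4.87% of all genes: Iigp1, Igtp, Irgm1, Irgm2, Gbp3 and Gbp7. At an unadjusted p under 0.05, Iigp1, Igtp, Irgm1 and Irgm2, all 4 of them immunity-related GTPases, were higher in DKO, against 2.12% of all genes. Iigp1 was higher by 2.36 ± 0.69 (SE), with an interval of 0.87 to 3.85 and an adjusted p of 0.651 in limma. Igtp was higher by 1.72 (interval 0.25 to 3.20), Irgm2 by 1.20 (0.19 to 2.21) and Irgm1 by 0.85 (0.13 to 1.58), each with an adjusted p of 0.998 in limma. Ido1 differed by 0.86, Gbp7 by 0.56, Gbp3 by 0.54, Gbp5 by 0.14 and Gbp6 by 0.02. All 9 differences were above 0, against 43.5% of all genes, and their median was 0.85, against -0.03 over all genes. T and natural killer cell markers averaged 5.01 to 5.11 in DKO, against 4.62 to 4.82 in SKO, and none of the 17 passed in limma (3 had an unadjusted p under 0.05), with a median difference of 0.23. B and plasma cell markers averaged 5.82 to 6.61 in DKO, against 5.54 to 6.05 in SKO, and none of the 9 passed (2 had an unadjusted p under 0.05), with a median difference of 0.55. The part of either list in the result was not tested. The fit takes its spread from all 4 genotypes, the WT arrays included. Without WT replicate 1, Iigp1 kept the difference of 2.36, with an SE of 0.36, and rose by limma's adjusted p of 0.0307, as the only one of the 9 genes and against 0.0812% of all genes called higher.

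The effect of interleukin-10 averaged over both STING backgrounds was added after the values were seen. In it Iigp1 rose by 2.09 ± 0.49 (SE; interval 1.04 to 3.14), or 4.26-fold, with a limma adjusted p of 0.0383, and the other 8 genes did not pass, against 2.73% of all genes. Igtp, Irgm1, Irgm2 and Gbp3 differed by 1.37, 0.68, 0.94 and 0.60, with limma adjusted p of 0.151 to 0.154. The call on Iigp1 is fragile: it was lost under 9 of 12 single omissions, the library labelled WT replicate 3 among them (1.69, limma adjusted p = 0.0627). Without WT replicate 1, 6 genes passed, and the share of all genes called in that fit is not given here.

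STING was then compared with interleukin-10 absent, in DKO against IL10KO. None of the 9 genes passed in limma, against 5.79% of all genes, and none had an unadjusted p under 0.05, against 24.4% of all genes. Iigp1, Gbp3, Gbp5 and Ido1 were lower in DKO without overlap of arrays, which was 4 of 9 genes against 13.8% of all genes. Iigp1 differed by -1.26 ± 0.69 (SE), with an interval of -2.75 to 0.23 and a limma adjusted p of 0.276. Ido1 differed by -1.09 (-2.41 to 0.23), Gbp3 by -0.54 (-1.18 to 0.10) and Gbp5 by -0.51 (-1.07 to 0.06). The regulatory GTPases Igtp, Irgm1 and Irgm2 differed by -0.47, -0.33 and -0.09, and the interval for Irgm2 was -1.10 to 0.92. The WT arrays enter these tests through the shared estimate of the spread. Without WT replicate 1 the differences stayed as they were, and Iigp1, Gbp3, Gbp5 and Ido1 were lower at an unadjusted p under 0.05, against 11.2% of all genes, with limma adjusted p of 0.0643, 0.107, 0.173 and 0.108. Without the library labelled WT replicate 3, Iigp1 and Gbp5 were lower at that level, against 11% of all genes.

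With interleukin-10 present, in SKO against WT, no gene of the 22180 was called in limma (0%). At an unadjusted p under 0.05, Iigp1 (-1.81, interval -3.30 to -0.32) and Gbp7 (-0.76, interval -1.51 to -0.01) were lower in SKO, against 0.947% of all genes. Of the 9 genes 8 had differences below 0, against 46.7% of all genes. In none of those 8 were the SKO arrays all below the WT arrays, which 2.46% of all genes showed. The library labelled WT replicate 3 lay below at least 1 SKO array in all 8, and WT replicate 2 did so in 5 of them (Igtp, Irgm1, Irgm2, Gbp3 and Ido1). Gbp6 was higher in SKO without overlap, by 0.31, which 3.75% of all genes showed. Without the library labelled WT replicate 3, Iigp1 differed by -2.62 ± 0.62 (SE; limma adjusted p = 0.216), Gbp7 by -1.15 (limma adjusted p = 0.45) and Gbp5 by -0.70 (limma adjusted p = 0.565), and none of the 9 genes passed in limma, while 0.144% of all genes were called lower. At an unadjusted p under 0.05, 6 of the 9 were then lower in SKO (Iigp1, Igtp, Irgm1, Gbp3, Gbp5 and Gbp7), against 1.92% of all genes, and 1 of the 2 WT arrays left was the bright replicate 1. Omitting WT replicate 1 instead left none of the 9 lower at an unadjusted p under 0.05, against 0.555% of all genes, with Iigp1 at -0.71 (interval -1.58 to 0.16) and Irgm2, Gbp3 and Ido1 at 0.11, 0.02 and 0.26. With WT replicate 2 left out, 4 of the 9 were lower at that level, against 0.735% of all genes. The differences between SKO and WT thus rested on which WT arrays were kept. The STING effect averaged over both interleukin-10 backgrounds, also added after the values were seen, called none of the 9 genes in limma, against 0.694% of all genes, and Iigp1, Gbp3 and Gbp5 were lower at an unadjusted p under 0.05, against 5.57%. Iigp1 differed by -1.54 (limma adjusted p = 0.19), and fell by 1.94 (limma adjusted p = 0.0447) without the library labelled WT replicate 3, where 0.478% of all genes were called lower.

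Neither of the other comparisons called any of the 9 genes in limma. Between DKO and WT, 0.0451% of all genes passed, no member had an unadjusted p under 0.05 against 2.92% of all genes, and the differences ran from -0.21 for Gbp5 to 0.60 for Irgm2. This rested on WT replicate 1: without it, 6 of the 9 genes (Iigp1, Igtp, Irgm1, Irgm2, Gbp3 and Ido1) were higher in DKO at an unadjusted p under 0.05, against 1.69% of all genes, and the differences ran from 0.11 for Gbp5 to 1.65 for Iigp1 (interval 0.78 to 2.52, limma adjusted p = 0.532). Without the library labelled WT replicate 3 they ran from -0.59 for Gbp7 to 0.40 for Gbp6, and Gbp5 (-0.56) was lower at an unadjusted p under 0.05, against 1.47% of all genes. For the difference of the interleukin-10 effect between STING backgrounds, (DKO minus SKO) minus (IL10KO minus WT), 0.645% of all genes passed and no member had an unadjusted p under 0.05 against 15.7% of all genes. The smallest adjusted p there was 0.374, for Gbp7 at 0.92 (interval -0.14 to 1.98). For Iigp1 the value was 0.55 with an interval of -1.56 to 2.66, which holds effects of the size of the interleukin-10 effects themselves. Its sign turned when WT replicate 1 was left out (-0.55), and the value was 1.35 when the library labelled WT replicate 3 was left out. In the first of these omissions Ido1 (-1.35) was lower at an unadjusted p under 0.05, against 5.98% of all genes, and in the second Gbp7 (1.31) was higher, against 7.01% (limma adjusted p = 0.371 and 0.232). Comparisons that share a genotype share its arrays.

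**Figure D4:**
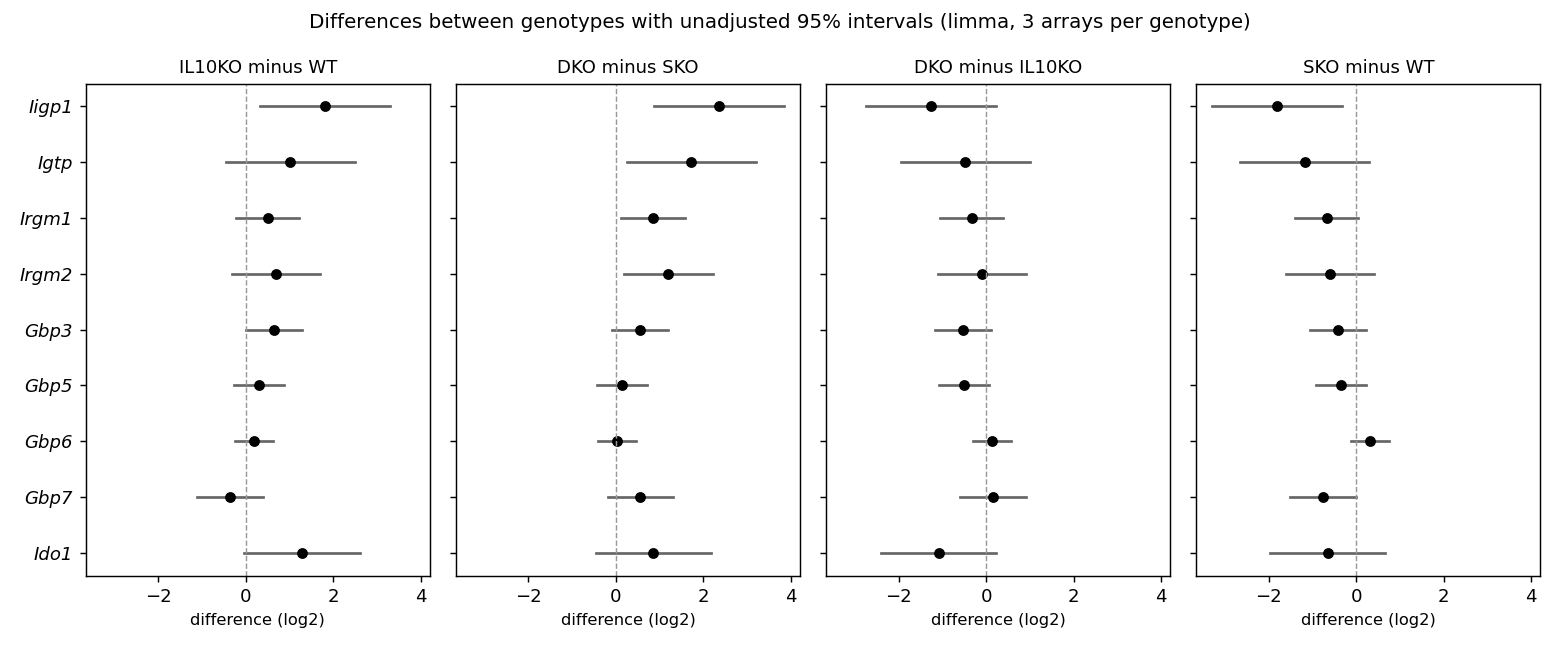
Differences in log2 signal (horizontal axis) for the 9 genes in IL10KO minus WT, DKO minus SKO, DKO minus IL10KO and SKO minus WT, with points for the estimates and bars for limma's unadjusted 95% intervals. In DKO minus SKO the intervals of Iigp1, Igtp, Irgm1 and Irgm2 lie above 0, and no point passed the adjusted threshold.

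The promoters are printed because they carry the letters that interferon-activated factors are known to bind. RefSeq windows of the GRCm38.p6 assembly, from 250 bases before to 50 after a gene's start, were at hand for 6 of the 9 measured genes. Each was searched on both strands for GAAA, any 2 bases and GAAA again, the core of an interferon-stimulated response element, and for TTCNNNGAA, the core of a gamma-activated site, which reads the same on both strands. All 6 genes held the response-element core, against 3.44% of 32851 windows of this length, and Gbp5, Gbp7, Igtp and Irgm2 also held TTCNNNGAA, against 8.3%. Both motifs together stood in 0.454% of all windows. The 200 bases before the start follow, 5′ to 3′ on the gene's strand, with motif letters in capitals. On the opposite strand that first motif reads TTTC, 2 bases and TTTC. The windows are chr3:142496734-142496933 (+) for Gbp5, chr3:142530136-142530335 (+) for Gbp7, chr3:142559844-142560043 (+) for Gbp3, chr11:48871421-48871620 (-) for Irgm1, chr11:58199356-58199555 (+) for Igtp and chr11:58214777-58214976 (+) for Irgm2.
Gbp5: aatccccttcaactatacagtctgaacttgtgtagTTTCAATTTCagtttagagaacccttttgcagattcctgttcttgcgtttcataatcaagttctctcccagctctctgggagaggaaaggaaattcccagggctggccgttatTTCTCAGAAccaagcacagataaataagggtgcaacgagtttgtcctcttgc
Gbp7: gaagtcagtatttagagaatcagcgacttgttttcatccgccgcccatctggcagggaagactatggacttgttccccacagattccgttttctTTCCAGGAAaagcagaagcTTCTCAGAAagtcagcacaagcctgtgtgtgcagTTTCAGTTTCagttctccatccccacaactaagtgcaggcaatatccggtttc
Gbp3: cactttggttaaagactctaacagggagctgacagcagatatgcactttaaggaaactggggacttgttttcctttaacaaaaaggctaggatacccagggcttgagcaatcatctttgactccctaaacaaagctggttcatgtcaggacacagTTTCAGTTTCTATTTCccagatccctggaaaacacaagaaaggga
Irgm1: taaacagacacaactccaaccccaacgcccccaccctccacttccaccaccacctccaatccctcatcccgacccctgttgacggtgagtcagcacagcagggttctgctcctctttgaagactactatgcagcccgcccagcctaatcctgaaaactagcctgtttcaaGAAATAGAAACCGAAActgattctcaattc
Igtp: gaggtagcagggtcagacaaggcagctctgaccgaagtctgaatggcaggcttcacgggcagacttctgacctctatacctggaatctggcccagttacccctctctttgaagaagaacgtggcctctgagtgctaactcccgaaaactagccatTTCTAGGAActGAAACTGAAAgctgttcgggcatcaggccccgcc
Irgm2: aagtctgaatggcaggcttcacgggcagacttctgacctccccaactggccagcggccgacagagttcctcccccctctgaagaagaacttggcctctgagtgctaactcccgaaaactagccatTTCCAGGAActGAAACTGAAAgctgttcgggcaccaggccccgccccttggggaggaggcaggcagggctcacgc

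Positions of a first base are counted from the start, with -1 the base before it. The response-element core began at -30 and -24 in Irgm1, where 2 copies overlap, at -34 in Igtp and at -64 in Irgm2. In Igtp and Irgm2 TTCNNNGAA lies just upstream of it, at -45 and -75. The 90 bases around that pair are identical between Igtp and Irgm2 at 86 positions (95.6%). In Gbp3 a pair of overlapping copies on the opposite strand began at -45 and -39, and a second annotated start of Gbp3 held neither motif. In Gbp7 the core began at -53, with TTCNNNGAA at -106 and -87. In Gbp5 it began at -165, with TTCNNNGAA at -52 and, outside the printed stretch, at -245. Irgm1 and Gbp3 had no TTCNNNGAA in the window. Of 9 other family genes with a window, 5 held the response-element core and 3 held TTCNNNGAA. A match is a description of letters and not evidence of a bound site.

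Profiles like that of the members were looked for among all genes. Likeness was the root mean square difference, over the 12 arrays, between a gene's signals and the mean of the 9 genes, each centred on its own mean. The 10 nearest genes outside the set were Psmb9 (0.181), Tap1 (0.209), H2-DMa (0.217), Nlrc5 (0.238), H2-Eb1 (0.254), Psmb8 (0.259), AW112010 (0.270), Zbp1 (0.271), Upp1 (0.273) and Btnl2 (0.275), against a median of 0.714 over all genes. Members themselves lay at 0.203 (Irgm1), 0.212 (Gbp3), 0.255 (Irgm2), 0.471 (Gbp7), 0.476 (Gbp5), 0.565 (Ido1), 0.572 (Igtp), 0.749 (Gbp6) and 0.934 (Iigp1), so genes near the mean were not near every member. Psmb9 and Psmb8 are immunoproteasome subunits, Tap1 is part of the peptide transporter, H2-DMa and H2-Eb1 are class II molecules, and Nlrc5 is the class I transactivator. Psmb9 had signals of 7.46, 7.77 and 7.95 in DKO, 8.51, 7.85 and 8.49 in IL10KO and 6.69, 6.71 and 6.97 in SKO, against 8.92, 7.16 and 6.77 in WT. Its group means ran IL10KO, DKO, WT, SKO from high to low, and WT replicate 1 was the brightest of the 12 arrays.

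Single genes had their own nearest profiles. The nearest gene to both Iigp1 (0.549) and Igtp (0.439) was Gm12250, another immunity-related GTPase gene, which lies next to Igtp. Gm12250 had 6.38, 6.99 and 6.37 in DKO, 7.12, 7.18 and 7.35 in IL10KO and 4.46, 4.45 and 5.31 in SKO, against 7.96, 5.31 and 3.91 in WT. Irgm1 lay nearest to Nlrc5 (0.190), Irgm2 to Zbp1 (0.196), Gbp3 to the chemokine gene Cxcl10 (0.202), Gbp7 to Parp14 (0.219) and Gbp5 to the lymphocyte gene Gimap4 (0.141). Ido1 lay nearest to Gzma, a granzyme of cytotoxic lymphocytes, at 0.384. Gbp6 lay nearest to Tubg2 (0.138). The measure is not scaled by a gene's range, so pairs of genes that vary little get small values. That range was 0.95 log2 units for Gbp6, a dim probe set, and 4.74 for Iigp1.

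Among 13 other measured family genes, 2 passed the threshold in each of 2 comparisons. Gm4951 and F830016B08Rik, which lie near Iigp1, rose in IL10KO against WT by 1.45 and 1.58 (limma adjusted p = 0.0321 and 0.0145) and fell in DKO against IL10KO, with differences of -1.61 and -1.55 (limma adjusted p = 0.0247 and 0.0196). Sting1, the targeted gene, is on the same chromosome, with 198 protein-coding genes between it and Iigp1. Whether that position bears on the differences was not tested. F830016B08Rik had signals of 3.75, 3.80 and 3.70 in DKO, 4.32, 5.55 and 6.01 in IL10KO and 3.83, 3.66 and 3.44 in SKO, against 4.30, 3.25 and 3.60 in WT. F830016B08Rik lay below the lower quartile of all genes on 8 of the 12 arrays and Gm4951 on 3, so the DKO, SKO and WT levels of F830016B08Rik are mostly those of a dim probe set. The other 11, which were Gbp2b, Gbp4, Gbp8, Gbp9, Gbp10, Gbp11, Irgq, Irgc1, Gm12250, 9930111J21Rik2 and Gm5431, passed in none of the 6 planned comparisons. WT replicate 1 was the brightest WT array in 12 of the 13 family genes, by over 1 log2 unit in 7. No fit of the family genes without WT replicate 1 is given here. Gbp9 differed by -0.69 between DKO and IL10KO (limma adjusted p = 0.0543). Gbp2b, the neighbour of Gbp3, had 5.50, 5.41 and 5.99 in DKO, 5.02, 4.99 and 5.67 in IL10KO and 5.01, 4.85 and 5.67 in SKO, against 10.20, 8.45 and 4.88 in WT. WT replicates 1 and 2 thus stood far above the other 10 arrays, and the difference of -2.61 between IL10KO and WT had a limma adjusted p of 0.0826.

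Few genes upstream of the GTPases passed the threshold. Ifng signal was 3.84, 4.25 and 4.40 in DKO, 4.93, 4.30 and 4.38 in IL10KO and 4.15, 4.40 and 4.08 in SKO, against 4.53, 4.22 and 4.01 in WT. It differed by 0.28 (interval -0.16 to 0.72) between IL10KO and WT, with a limma adjusted p of 0.399, and by -0.37 between DKO and IL10KO (limma adjusted p = 0.274). Ifngr1, Ifngr2, Jak1 and Jak2 lay within 0.13 of each other between IL10KO and either WT or DKO, and none passed. Irf1 had 8.42, 8.58 and 8.49 in DKO, 8.59, 7.97 and 8.61 in IL10KO and 7.91, 7.56 and 8.08 in SKO, against 8.92, 8.33 and 7.84 in WT, and did not pass in any comparison. Of 9 measured genes of the ligand, receptor and kinase list, only Socs3, a feedback inhibitor of cytokine receptors, passed: it rose in IL10KO against WT by 1.55 and fell in DKO against IL10KO by 1.48 (limma adjusted p = 0.00462 and 0.00767). Of 7 cytokines that induce interferon-gamma, only Il15 passed, with differences of -1.48 in IL10KO against WT and 1.04 in DKO against IL10KO (limma adjusted p = 0.0037 and 0.0286). Il23a lay below the lower quartile of all genes on each of the 12 arrays and Il12a on 9, so their lack of a call describes dim probe sets. Ifng was near that quartile, which was 3.90 to 4.26 over the arrays, and lay below it on 1 array.

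Other targets of interferon-gamma included genes that passed the threshold. Of 22 measured, 7 rose in IL10KO against WT and none fell. Cxcl9, a T cell chemokine, rose by 2.67, Nos2, the inducible nitric oxide synthase, by 2.65, Ubd, a ubiquitin-like modifier, by 1.97, and Casp4, which encodes caspase-11, by 1.34. In DKO against IL10KO 6 fell and none rose, among them Ubd (-2.31), Nos2 (-1.86), Acod1 (-1.17), the itaconate enzyme, and Fcgr1 (-1.07), a macrophage Fc receptor. The list's median difference was 0.69 in IL10KO against WT and -0.58 in DKO against IL10KO, where the 9 measured members (8 GTPases and Ido1) had medians of 0.66 and -0.47 and all genes 0.03 and -0.04. Several of these genes are expressed by macrophages and neutrophils, and 8 of 10 neutrophil markers rose in IL10KO against WT and fell in DKO against IL10KO. Neutrophil markers averaged 4.33 to 4.48 in DKO, 5.82 to 7.17 in IL10KO, 4.31 to 4.39 in SKO and 4.31 to 4.36 in WT. Among the markers of T and natural killer cells (17 genes), limma called Cd3d, Cd3g and Ccl5 higher in IL10KO than in WT. In that comparison 9 of the 17 had an unadjusted p under 0.05, and the list median was 0.53. Between DKO and IL10KO none was called, 6 had an unadjusted p under 0.05, and the list median was -0.46. Of 17 macrophage and monocyte markers, 5 rose in IL10KO against WT (list median 0.59) and 3 fell in DKO against IL10KO (list median -0.49), with averages of 7.01 to 7.17 in DKO, 7.22 to 7.82 in IL10KO, 6.78 to 7.12 in SKO and 6.61 to 7.27 in WT. Fcgr1 is counted both among these markers and among the 22 targets. Smooth muscle markers moved the other way: 8 of 10 fell in IL10KO against WT and 8 rose in DKO against IL10KO, with averages of 10.05 to 10.29 in DKO, 9.25 to 9.46 in IL10KO, 10.13 to 10.32 in SKO and 10.06 to 10.22 in WT. The part of these cell types in the result was not tested.

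Cxcl9 had signals of 6.99, 7.64 and 7.67 in DKO, 9.41, 8.77 and 9.57 in IL10KO and 5.27, 5.32 and 6.28 in SKO, against 8.34, 5.87 and 5.54 in WT. It followed the order of Iigp1, with WT replicate 1 high, but every IL10KO array lay above WT replicate 1. Its limma adjusted p was 0.0117 in IL10KO against WT, 0.0707 in DKO against IL10KO (-1.81) and 0.758 in DKO against SKO (1.81). Cxcl10 differed by 0.75 and -0.72 in the first 2 of these comparisons (limma adjusted p = 0.116 and 0.143). Casp4, the caspase that guanylate-binding proteins are known to help activate, had 8.34, 8.48 and 8.30 in DKO, 7.44, 8.22 and 8.07 in IL10KO and 6.64, 6.11 and 6.36 in SKO, against 6.69, 6.21 and 6.80 in WT. It rose 4.01-fold in DKO against SKO (interval of the log2 difference 1.55 to 2.46, limma adjusted p = 0.00116) and 3.49-fold in DKO against WT (log2 difference 1.81, limma adjusted p = 0.00394), and was the only one of the 22 targets called in either.

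Type I interferon-stimulated genes (20 measured), which are known to be controlled through the same response elements, had no call by limma in any of the 6 planned comparisons, with 0 to 5 genes at an unadjusted p under 0.05. Their median difference was -0.14 in IL10KO against WT and 0.36 in DKO against IL10KO, opposite in sign to the medians of the 9 members in both. The -0.14 took in WT replicate 1, where this list averaged 6.91. The list averaged 6.11 and 5.91 on WT replicates 2 and 3, against 6.12 to 6.30 in IL10KO. No median without WT replicate 1 is given here, so the opposite sign in IL10KO against WT may rest on 1 array. In the other 4 comparisons the signs were the same, at 0.36 against 0.85 for the members in DKO minus SKO, -0.18 against -0.66 in SKO minus WT, 0.29 against 0.20 in DKO minus WT and 0.64 against 0.35 for the difference of the interleukin-10 effect between STING backgrounds. Of 16 partners of the GTPases, chiefly autophagy and inflammasome genes, Atg12 alone passed, at 0.64 in DKO against IL10KO (limma adjusted p = 0.0498). Of 14 genes of tryptophan use around Ido1, Tph1, which makes serotonin, fell in IL10KO against WT (-0.87) and rose in DKO against IL10KO (0.79), and Slc7a5, a transporter of large neutral amino acids, fell in the second of these (-0.85). The 10 transcription factors and transactivators of the pathway, Nlrc5 among them, gave no call by limma in the 6 planned comparisons, with 0 to 2 genes at an unadjusted p under 0.05. WT replicate 1 was the brightest WT array in 9 of the 10. Their average was 8.34, 7.64 and 7.43 on WT replicates 1, 2 and 3, against 7.73 to 7.84 in IL10KO. No fit of these 10 genes without WT replicate 1 is given here. In the averaged interleukin-10 effect, added after the values were seen, 1 of these 10 was called higher (Irf8). So were 4 of the 22 other targets (Cxcl9, Nos2, Casp4 and Fcgr1), against 2.73% of all genes called in either direction.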

How the data were processed

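The authors deposited 1 table of log2 signals for 41345 probe sets on 12 mouse colon arrays, for which the submitters' processing notes name Affymetrix Expression Console 1.3.1.187. RNA came from RNeasy extraction and 300 ng of it entered WT PLUS labelling, per the labels' protocols. The sources used here do not give how probes were summarised and arrays normalized, and the log2 scale was inferred from the values, whose array medians were 4.80 to 5.02. The table has no detection calls, and precision is limited by the number of arrays.

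Names came from the platform annotation (23521 with 1 symbol, 1814 with several, 16010 with none), and 23328 matched a RefSeq mouse table (GRCm38.p6) by Entrez identifier. The brightest probe set stood for a gene, which gave 22180 genes. Values were used as deposited. All 12 arrays were fitted with limma 3.58.1 (R 4.3.3), with a mean per genotype, 8 residual and 5.56 prior degrees of freedom, and 2-sided moderated tests adjusted by Benjamini-Hochberg over all genes at 0.05. Genotypes came from the labels, and replicate numbers follow the order of samples and pair nothing. The steps were tested on simulated data.

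The members, the gene lists, the marker lists and the doubted libraries were chosen with earlier results of these data known. All members were described. From each list the called genes were counted and up to 4 with the largest difference named per comparison, with Ifng, its receptor and kinases, Irf1, Cxcl9, Cxcl10 and measured family genes named beside them. Tgtp1, Tgtp2 and Ifi47 share probe sets with other symbols and were not used here. Iigp1, Gbp6 and Ido1 were not searched for promoter motifs. Protein sequences were not analysed here. The alternatives comprised quantile normalization, centring on the median, a filter that drops the dimmest 33.3% of genes, averaging over probe sets, a trended robust prior, array weights, only the genotypes compared, leaving out each array, and leaving out 3 doubted libraries.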

Additional observations from a re-analysis of the deposited data

How the results depend on the processing

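Between DKO and SKO, 5 of the 9 genes passed with limma's array weights (Iigp1, Igtp, Irgm1, Irgm2 and Gbp3, with adjusted p of 0.0211 to 0.0477), 1 when only these 2 genotypes were fitted (Iigp1, adjusted p = 0.0175), and 0 to 1 when single arrays were left out, against 0 from all arrays. Estimation of the weights stopped before it reached its tolerance. Shares of all genes called are not given beside the counts in this section, so a count alone does not set the members apart. Between IL10KO and WT, single omissions gave 0 to 6 genes, and the 6 came without WT replicate 1. For the averaged interleukin-10 effect, 1 gene from all arrays became 0 with a trended robust prior, 3 with array weights (Iigp1, Irgm1 and Gbp3), 0 without 3 doubted libraries (IL10KO replicate 1, SKO replicate 2 and the library labelled WT replicate 3) and 0 to 6 under single omissions. Of these 3 libraries, only the one labelled WT replicate 3 has a reason for doubt given here, its Sting1 signal. For the averaged STING effect, 0 became 1 without those 3 libraries (Gbp5) and 0 to 1 under single omissions (Iigp1 without the library labelled WT replicate 3). The count stayed at 0 under all alternatives run for DKO against IL10KO, SKO against WT, DKO against WT and the difference of effects. Quantile normalization, median centring, the filter on dim genes and the mean of probe sets changed no count of called members. Among 1065 values of single genes in the 6 planned comparisons, 45 changed sign and none of these was called. The fit on only the genotypes compared was not run for the difference of effects, and the dim filter removed Gbp6. The causes were not tested. No paired analysis was possible because replicate numbers follow the order of samples and carry no pairing.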
